A study of Mus musculus with 4 samples.

Results

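The genes of the proteasome, the protease complex that degrades ubiquitin-tagged proteins, were described by the H3K4me3 peaks at their promoters in mouse calf muscle. Members were the protein-coding genes of GENCODE M21 whose symbol starts with Psm, then a letter from a to g, then a number. The rule took 50 of 21755 protein-coding genes, and these lay on 16 chromosomes. One of them, Psmc3ip, encodes a factor of meiotic recombination and no subunit. The other 49 encode subunits, assembly chaperones, activators and an inhibitor, and include Psme2b, a copy of the activator gene Psme2.

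H3K4me3, trimethylation of histone H3 at lysine 4, marks promoters, and it was mapped by ChIP-seq, the sequencing of chromatin fragments pulled down with an antibody. The tissue was gastrocnemius, the large muscle of the calf, from adult B6CASTF1/J females aged 2 months, a cross of C57BL/6J with CAST/EiJ for which the labels give no treatment and no engineered allele. Pool E (biological replicate 1) and pool F (biological replicate 2) each combined 2 biosamples and gave 2 technical libraries, 4 libraries in all, with fragments of 200 to 600 bp. Every library came from the same condition, so the values below are set between genes and between pools, with no test of a condition.

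Marked genes were those with a peak no further than 1000 bp from one or more of their annotated transcription start sites (TSSs). The main list held the 41955 replicated peaks of both pools, and the pool E list held 42418 peaks and the pool F list 39544. Signal value is the height the authors' files give to each peak, with an unstated reference, and was ranked only within a list, as a percentile among all marked protein-coding genes. Domain width is the length of the widest block of peaks near a TSS, after peaks up to 1000 bp apart were joined. The 2 technical libraries of a pool share 1 list, so values exist per pool and not per library, and the sequencing depth behind them is unknown.

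Markers of cell types are set beside the 69.3% of all protein-coding genes that were marked. All 8 skeletal muscle markers were marked, among them the muscle creatine kinase gene Ckm and the titin gene Ttn, with signal values of 23.2 to 58.8. Their median signal value of 49.1 was near the 45.2 of all marked genes. All 4 endothelial markers were marked, at 25.5 to 38.6. Median domain width was 10846.5 bp in the muscle markers and 12166 bp in the endothelial markers, against 2400 bp in all marked genes. All 8 macrophage and myeloid markers were marked, at low signal values of 3.05 to 8.02 (median 6.02). None of the 8 lymphocyte markers was marked in the replicated list, and Cd22 was marked in the pool E list alone. The myeloid and lymphocyte markers are all of the low CpG class described below, of which 25.3% was marked. In whole tissue, fewer cells that carry a mark and less of the mark in each cell cannot be told apart.

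The proteasome core is a barrel of outer alpha rings, which form the gate, and inner beta rings, which hold the catalytic sites. A regulatory particle of ATPases and non-ATPase subunits caps the barrel, binds ubiquitin chains, unfolds the substrate and feeds it in. Interferon replaces the catalytic subunits by Psmb8, Psmb9 and Psmb10 to form the immunoproteasome, which cuts peptides for MHC class I, and in skeletal muscle the proteasome is known for the breakdown of contractile proteins during wasting.

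Nearly every proteasome gene was marked. A peak lay at 48 of the 50 members in the replicated list (96%), against 69.3% of all protein-coding genes. The same count was found in the pool E list, where the share of all genes was 69.3%, and in the pool F list, where it was 68.9%. A peak covered a TSS in each of these 48 genes, 96% of the members, against 67% of all protein-coding genes. Cover of a TSS was common in any marked gene, with 14585 of the 15067 marked protein-coding genes. The exceptions among the members, Psmb11 and Psme2b, were unmarked in every list. No member was marked in some lists and unmarked in others. Of all protein-coding genes, 68.6% were marked in the replicated, pool E and pool F lists alike. The count was also 48 in the pooled list (69.5% of all genes), with a window of 2500 bp (70.4%), with TSSs of protein-coding transcripts only (68.7%) and with peaks of a q-value of at most 0.01 (69.1%). The members thus lay at 0 bp or well outside the window, since the nearest peak to an unmarked member, that of Psmb11, was 3064 bp away.

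CpG density moves with marking in the whole annotation and is given beside that count, in classes set by how many CpG dinucleotides the bases around the TSSs hold against the number that their base composition gives. Of all genes, 99.3% of the high CpG class, 93.9% of the intermediate class and 25.3% of the low class were marked. The members fell into 16 high, 29 intermediate and 5 low CpG genes, and 16, 29 and 3 of these were marked. With CpG windows of 500 bp in place of 1000 bp, 34 members were in the high class. The low class held Psmb11, Psme2b, Psmd10, Psme1 and Psme2, and the last 3 were the marked ones. The part of CpG content in the marking of proteasome genes was not tested.

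The height of the mark was close to that of other marked promoters. The median signal value was 48.6 in the 48 marked members, against 45.2 in all marked protein-coding genes and 51.6 in marked genes of the high CpG class. A total of 47 marked members had a signal value above 30 and 22 had one above 50, and a single gene, Psma8, lay far below the rest. Domain width had a median of 2527 bp in the members, against 2400 bp in all marked genes and 2792 bp in the high CpG class. Cytosolic ribosomal protein genes, another large complex, had 78 of 80 genes marked (97.5%) with a median signal value of 51.7 and width of 2835 bp. Genes of complex I of the respiratory chain had 37 of 37 marked, with a median signal value of 51.2 and width of 2701 bp.

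**Figure D1:**
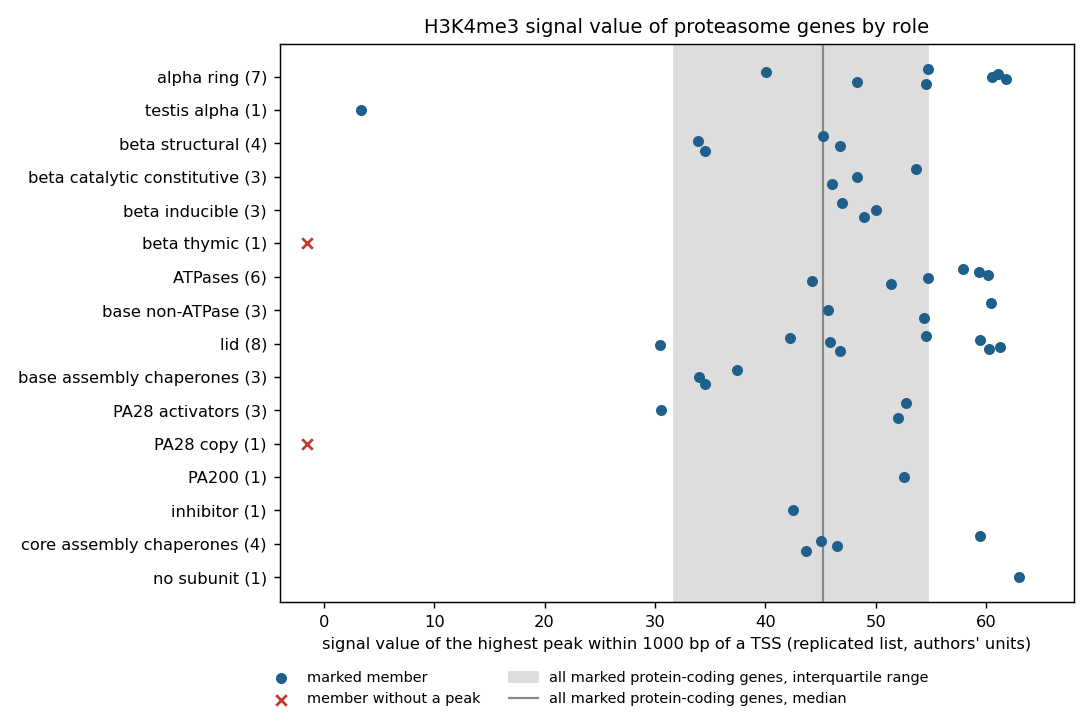
Signal value of the highest peak near a TSS in the replicated list (x axis, authors' units) for each of the 50 proteasome genes, grouped by role (y axis, number of genes in brackets); points are marked genes, crosses at the left edge are the 2 genes without a peak, and the band and line are the interquartile range and median of all marked genes. Psma8 at 3.36 stands apart from the other 47 marked genes, which lie between 30.5 and 63.0.

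The 3 inducible catalytic subunits of the immunoproteasome had a peak in every list, as did the constitutive subunits they replace. Among all genes of the intermediate CpG class, that of the 3 inducible genes, 93.9% were marked in the replicated list. Psmb8, the inducible counterpart of the chymotrypsin-like Psmb5, had a signal value of 48.9 and a domain of 2264 bp in the replicated list, against 46.0 and 1653 bp for Psmb5. In the pool E list Psmb8 had 54.1 and Psmb5 46.3, and in the pool F list Psmb8 had 44.8 and Psmb5 45.1. The order of their signal values thus turned between the pools, while the domain of Psmb8 was wider in both, with 2402 bp against 2068 bp for Psmb5 in pool E and 2053 bp against 1640 bp for Psmb5 in pool F.

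Psmb9, which takes the place of the caspase-like Psmb6, had a signal value of 49.98 and Psmb6 one of 48.3. Psmb9 was higher in each pool, with 54.5 against 52.4 for Psmb6 in pool E and 46.8 against 45.5 for Psmb6 in pool F. Its domain measured 2309 bp, against 1968 bp for Psmb6, and reached 2935 bp in pool E, where a second peak joined it, against 2279 bp in pool F. Psmb10, which takes the place of the trypsin-like Psmb7, went the other way. Its signal value was 47.0, against 53.6 for Psmb7, and it was lower in pool E (52.2, against 57.1 for Psmb7) and in pool F (43.2, against 50.7 for Psmb7). Over the 3 pairs, signal values of the inducible genes (46.96 to 49.98) lay inside the range of their counterparts (46.0 to 53.6) in the replicated list. In the pool F list they did not, with 43.2 to 46.8 in the inducible genes, against 45.1 to 50.7 in their counterparts. With 1 value per pool these differences have no test.

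The signal values of the inducible genes were far above those of the macrophage and myeloid markers, whose highest was 8.02 at Csf1r, the receptor of macrophage colony-stimulating factor, while no lymphocyte marker was marked in that list. The low markers are low CpG genes, whereas Psmb8, Psmb9 and Psmb10 are intermediate. Psmb10 is so only through another of its TSSs, since the CpG ratio at its reference TSS was 0.266, under the 0.48 limit of the low class. The part of immune cells in the peaks of the inducible genes was not tested.

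The genes of tissue-restricted subunits had no peak or a weak one. Psmb11, the thymus-specific counterpart of Psmb5, had no peak in any list. Unlike Psmb5, which is of the high class, it is of the low CpG class, of which 25.3% was marked. It lies beside Psmb5 on chromosome 14, on the other strand, with the reference TSSs 7288 bp apart, and the peak nearest to it was that of Psmb5, at 3093 bp in the pool E list and 2996 bp in the pool F list. Among 4 markers of cortical thymic epithelium, the cell type known for Psmb11, the defining factor Foxn1 was unmarked, and Prss16 (45.4), Cd83 (43.7) and Ly75 (34.8) were marked. Foxn1 is also of the low CpG class, and the marked ones are of the high or intermediate class, of which 96.7% was marked.

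Psma8, the testis counterpart of the alpha ring gene Psma7, had the lowest signal value of the marked members when the highest peak of each was taken. Its signal value was 3.36 in the replicated list, against 54.7 for Psma7. In the pool E list Psma8 had 4.08 and Psma7 57.5, and in the pool F list Psma8 had 3.29 and Psma7 51.0. The peak covered 261 bp at the TSS, against a domain of 3464 bp for Psma7. It was called in both pools, over 287 bp in the list of pool E and 228 bp in that of pool F. Its −log10 q-value was 5.18 in the pool E list and 2.84 in the pool F list. Only 0.757% of all marked genes had a lower signal value in the replicated list. Of 6 germ cell markers, Ddx4, Mael, Sycp3 and Sycp1 were unmarked, and Dazl (34.3) and Dmc1 (11.4) were marked. All 6 are genes of the high or intermediate CpG class like Psma8, and 96.7% of that class was marked.

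Psmb7 and Psma8 had no promoter entry used here, so their pairs with Psmb10 and Psma7 cannot be set side by side. The promoters of the inducible and thymic genes are shown with those of the constitutive Psmb5 and Psmb6. Each is the 250 bases before the RefSeq start of the gene (GRCm38.p6, the build of mm10), read 5′ to 3′ on the gene's own strand, with capitals for any of 12 short motifs described further on. The Psmb8 sequence is chr17:34197945-34198194 (plus strand), Psmb5 is chr14:54617996-54618245 (minus), Psmb9 is chr17:34187331-34187580 (minus) and Psmb6 is chr11:70525107-70525356 (plus), all of them inside the peak of the gene. Psmb10 is chr8:105938393-105938642 (minus), of which the peak covers the part up to 105938599 with its summit 1127 bp downstream of the reference TSS, and Psmb11 is chr14:54625060-54625309 (plus), outside any peak.
Psmb8: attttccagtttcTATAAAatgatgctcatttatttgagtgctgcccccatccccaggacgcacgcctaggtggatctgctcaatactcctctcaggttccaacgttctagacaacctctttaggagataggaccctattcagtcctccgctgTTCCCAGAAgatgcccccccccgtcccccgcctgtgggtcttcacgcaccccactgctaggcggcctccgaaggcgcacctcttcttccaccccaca
Psmb5: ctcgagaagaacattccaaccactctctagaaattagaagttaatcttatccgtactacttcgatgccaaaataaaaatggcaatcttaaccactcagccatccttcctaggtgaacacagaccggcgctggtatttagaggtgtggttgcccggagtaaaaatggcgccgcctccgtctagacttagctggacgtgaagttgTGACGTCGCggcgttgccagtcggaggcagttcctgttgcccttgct
Psmb9: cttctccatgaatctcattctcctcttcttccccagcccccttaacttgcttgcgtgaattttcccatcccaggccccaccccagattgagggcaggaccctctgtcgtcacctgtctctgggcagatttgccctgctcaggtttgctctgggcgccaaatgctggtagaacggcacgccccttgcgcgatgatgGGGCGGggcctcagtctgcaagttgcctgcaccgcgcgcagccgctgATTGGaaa
Psmb6: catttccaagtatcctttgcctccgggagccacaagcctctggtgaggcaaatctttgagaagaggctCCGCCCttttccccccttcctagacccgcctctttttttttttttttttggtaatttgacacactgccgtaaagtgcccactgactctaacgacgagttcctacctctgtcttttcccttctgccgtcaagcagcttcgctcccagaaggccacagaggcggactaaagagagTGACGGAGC
Psmb10: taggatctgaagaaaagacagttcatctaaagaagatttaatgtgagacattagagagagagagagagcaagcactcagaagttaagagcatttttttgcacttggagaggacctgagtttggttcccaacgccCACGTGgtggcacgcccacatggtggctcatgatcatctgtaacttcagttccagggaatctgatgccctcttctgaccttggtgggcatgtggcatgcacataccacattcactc
Psmb11: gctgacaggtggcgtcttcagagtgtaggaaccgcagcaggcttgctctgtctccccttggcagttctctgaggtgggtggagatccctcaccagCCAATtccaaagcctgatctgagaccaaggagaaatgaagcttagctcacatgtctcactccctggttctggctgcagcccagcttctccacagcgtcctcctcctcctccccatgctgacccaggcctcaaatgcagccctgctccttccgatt
The capitals differ between Psmb8 and Psmb5, between Psmb9 and Psmb6, and between Psmb11 and Psmb5. The STAT type motif of Psmb8 lies at −97 to −89 from the start and its TATA box at −237 to −232. Psmb5 carries the antioxidant response type TGACNNNGC at −47 to −39, where a match of the CRE type motif GACGTCA on the other strand overlaps it. Psmb9 holds a GC box at −55 to −50 and a CCAAT box on the opposite strand at −8 to −4, and Psmb6 carries TGACNNNGC at −9 to −1 and a GC box at −182 to −177. Psmb10 holds an E-box and Psmb11 a CCAAT box.

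**Figure D2:**
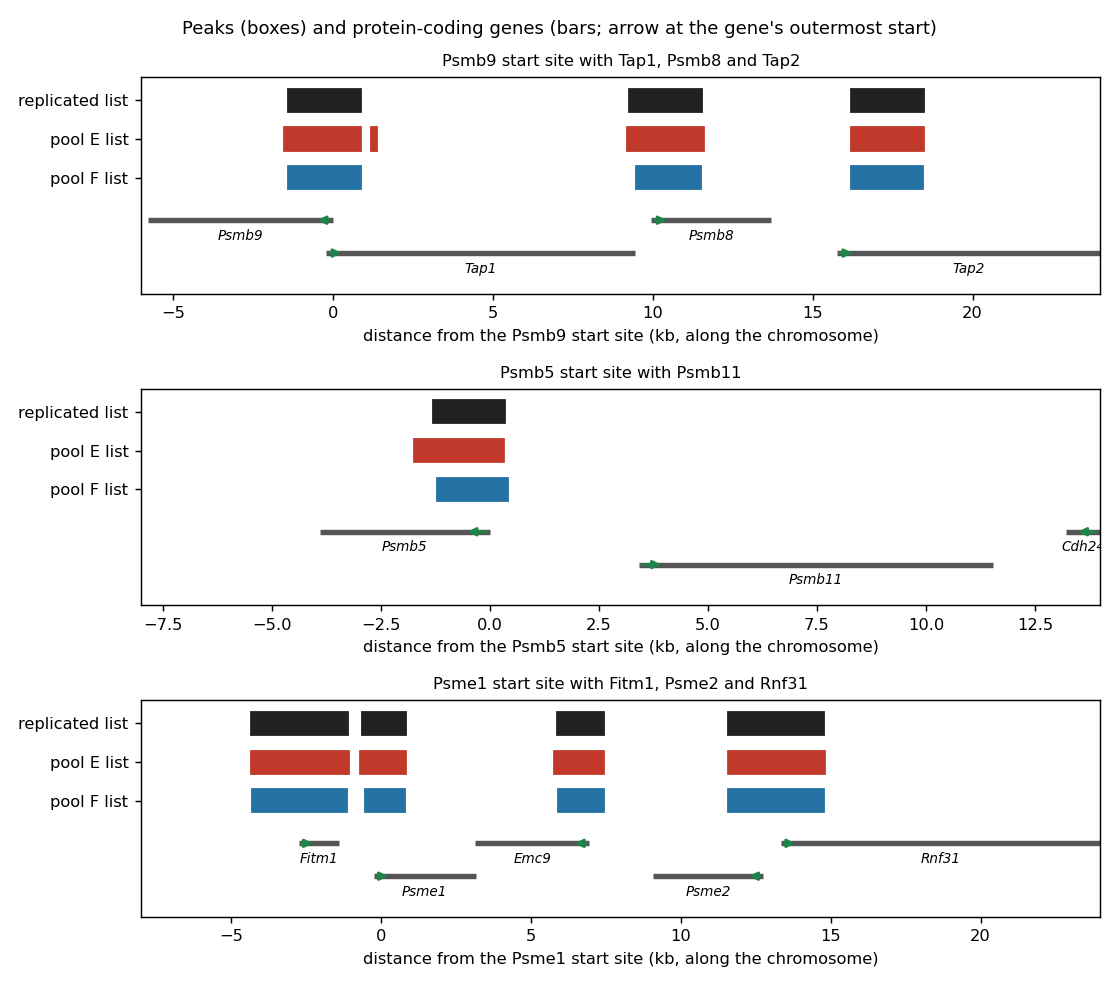
Peaks of the replicated, pool E and pool F lists (boxes) and protein-coding genes (bars, with an arrow at the outermost start) around Psmb9, Psmb5 and Psme1, by distance from the start of that gene in kb along the chromosome. Psmb9 and Tap1 share 1 peak while Psmb8 and Tap2 have their own, Psmb11 has no peak beside that of Psmb5, and the peaks of Psme1 and Psme2 lie apart.

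The MHC neighbourhood of Psmb8 and Psmb9 on chromosome 17 was marked gene by gene. Psmb9 and Tap1, a subunit of the transporter that loads MHC class I peptides, start 30 bp apart at their nearest TSSs on opposite strands and share 1 peak, chr17:34186350-34188658, so their signal value cannot be told apart. Psmb8 starts 9957 bp or more from Psmb9 and has a peak of its own, chr17:34197031-34199294. Tap2, the other transporter subunit, had a signal value of 61.2. All 25 genes of a list of the MHC class I pathway and interferon response were marked, against 69.3% of all protein-coding genes and 93.9% of those in the intermediate CpG class, with a median signal value of 46.4. The highest were the peptidase gene Erap1 (62.4) and Tap2, and the lowest were the interferon response genes Isg15 (7.65) and Ifit1 (17.5). The interferon regulatory factor gene Irf1 had 60.3 and the MHC class I activator Nlrc5 had 36.8.

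In the constitutive core all 14 genes were marked, with a median signal value of 48.3. Of all protein-coding genes 69.3% were marked, and of the high or intermediate CpG class, which holds these 14, 96.7%. In the alpha ring 6 of 7 genes had a signal value above the median of all marked genes in the replicated list, and 5 of 7 in each pool list. All 7 exceeded the median domain width in the replicated list, and 6 in each pool list. Psma3 was highest at 61.8 in the replicated list and Psma6 lowest at 40.1, and both are structural subunits of the gate ring. In the pool E list that order turned, with Psma3 lowest at 41.6, Psma6 at 42.6 and Psma5 highest at 66.8. The 4 structural beta genes had a median of 39.9 in the replicated list, from 33.9 at Psmb3 to 46.8 at Psmb2. The 3 constitutive catalytic genes lay at 46.0 to 53.6, all below the median width of all marked genes in each list. In signal value, 3 of them lay above the median of all marked genes in the replicated and pool F lists and 2 in the pool E list, where Psmb5 lay below it at 46.3, against 48.9 for all marked genes.

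All 17 subunit genes of the regulatory particle were marked, against 69.3% of all protein-coding genes. These 17 are of the high or intermediate CpG class, of which 96.7% was marked, so the share was near that background. In the replicated list their median signal value was 54.6, at a median percentile of 74.3, and 14 of 17 exceeded the median of all marked genes. The pool lists placed them lower, at a median percentile of 51.1 with 10 of 17 above that median in pool E, and 54.9 with 14 of 17 above it in pool F. Among the 6 ATPase genes, which encode the unfolding motor, Psmc4 was highest at 60.2 in the replicated list and Psmc2 lowest at 44.3, with a group median of 56.3. Their order also moved, since Psmc5 was lowest in pool E (40.1) and Psmc6 in pool F (42.3). The 3 non-ATPase genes of the base ran from 45.7 at Psmd2, a scaffold that docks ubiquitin receptors, to 60.4 at Psmd4, itself a ubiquitin receptor. The 8 lid genes had a median of 50.6 in the replicated list, where 6 exceeded the median of all marked genes, against 3 in pool E and 6 in pool F. They spread from 30.5 at Psmd8, a structural subunit, to 61.3 at Psmd7, the partner of the deubiquitinase Psmd14, which had 54.6.

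Assembly factors and accessory caps were more mixed. The 3 chaperones of base assembly, Psmd9 (33.99), Psmd5 (34.5) and Psmd10 (37.4, the oncoprotein gankyrin), all lay below the median of all marked genes, and did so in the pool E list (36.1 to 38.8) and the pool F list (32.3 to 35.2). The 4 chaperones of core assembly lay at 43.7 (Psmg1) to 59.4 (Psmg4). Among the PA28 activator genes, which encode caps that open the gate without ATP, Psme3 had 52.8, Psme1 52.0 and Psme2 30.5. Psme4, which encodes the PA200 cap, had 52.6 with a domain of 3765 bp. Psmf1, which encodes the inhibitor PI31, had 42.5. Psmc3ip, the gene that is no subunit, had the highest signal value of the 50 in the replicated list at 63.0, above 99.5% of all marked genes, over a domain of 1717 bp. In the pool F list it had 58.1 and the lid gene Psmd6 was higher, at 58.2.

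Psme2b was the other unmarked member, and its nearest peak lay 44051 bp away. It is a gene of 1 TSS on chromosome 11, and its start region was the only one among the members with a near-identical stretch elsewhere in the genome, 540 bases at 99.4% identity in chr11:49018196-49018735. Reads from such a stretch may be placed at either copy or dropped, depending on an aligner that is not given in the sources used here. Within that stretch an unmarked Psme2b thus cannot be told apart from an unmappable one. The stretch spans bases 461 to 1000 of the 1000 bases searched around the TSS, which hold the start and its upstream side. The rest of the downstream side had no copy that passed the search. Psme2b is also of the low CpG class, of which 25.3% was marked.

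Domain widths ranged from 261 bp at Psma8 to 7529 bp at Psmb3, a structural beta gene. The wide end was made of neighbours. The block at Psmb3, chr11:97697758-97705286, joins its own peak of 3337 bp to another upstream and holds a TSS of Pcgf2, a Polycomb gene. Psmb1, a structural beta gene, had 5200 bp in a peak that also covers the start of Tbp, the TATA-binding protein gene, 137 bp away on the other strand. Psme1 had 5154 bp, made of its own peak of 1451 bp, a peak of 3219 bp at Fitm1, a fat storage gene of muscle, and the gap between them. Next to Psma8, the narrow end held Psmb5 at 1653 bp and the chaperone gene Psmd9 at 1684 bp.

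**Figure D3:**
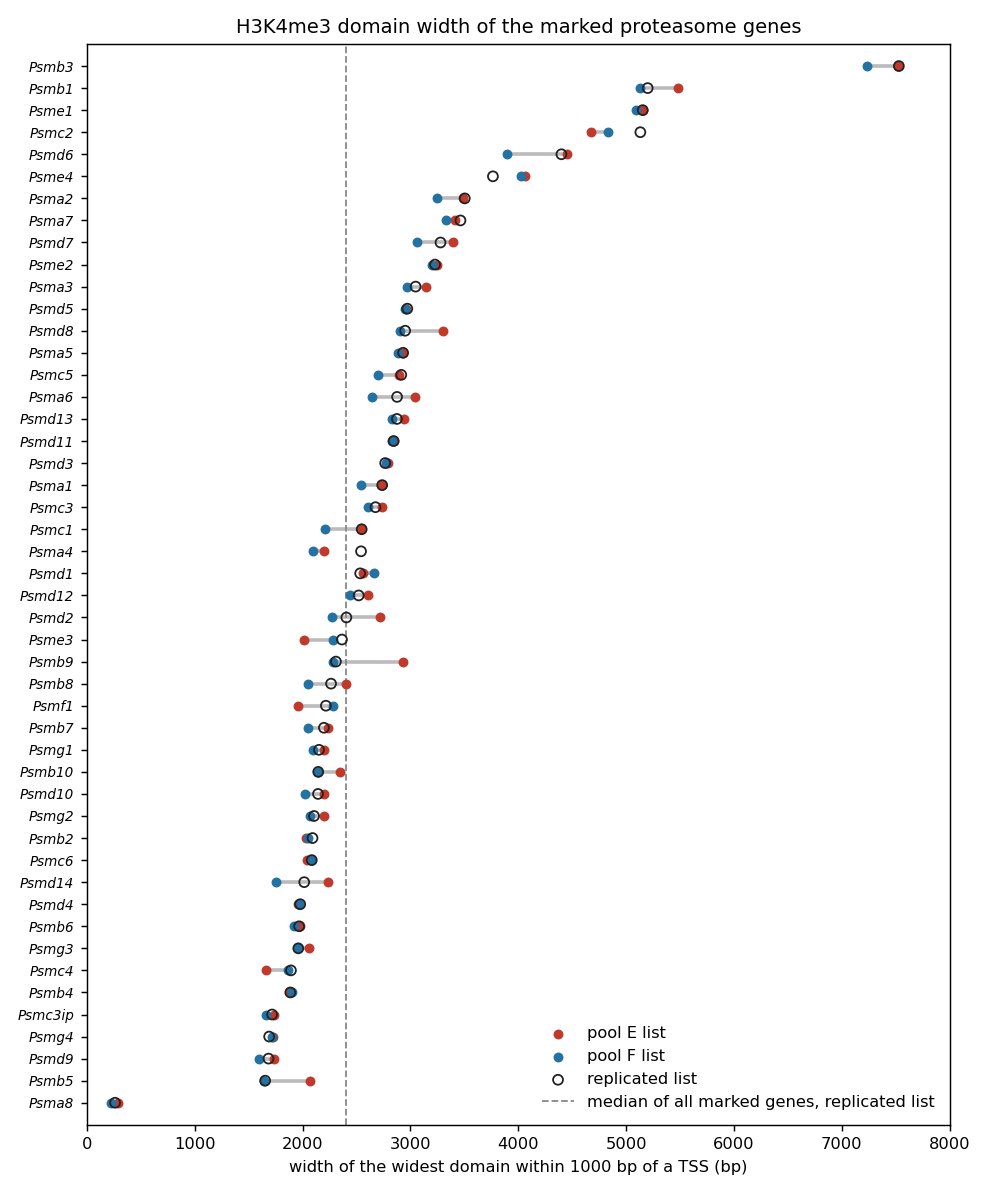
Width in bp of the widest domain near a TSS (x axis) for each of the 48 marked proteasome genes (y axis), in the pool E list (red), the pool F list (blue) and the replicated list (open circles), with the median of all marked genes as a dashed line. Most genes lie near the dashed line with close values in both pools, Psmb3 is widest at 7529 bp and Psma8 narrowest at 261 bp.

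Shared promoters were common among the members. A protein-coding gene on the other strand started within 1000 bp of 12 of the 50 members (24%), against 11.1% of all protein-coding genes, 20% of ribosomal protein genes and 40.5% of complex I genes. Among genes of the high or intermediate CpG class the share was 16.8%. The shortest gaps were 32 bp between Psmc2 and Dnajc2, a chaperone gene, and 38 bp between a TSS of Psmb9 and one of Tap1 upstream of it. Next came 75 bp between Psma2 and the mitochondrial ribosome gene Mrpl32, and 75 bp between Psmc5 and Ftsj3, a ribosome assembly gene. Psma7 lay 76 bp from Ss18l1, Psmd13 99 bp from the sirtuin gene Sirt3 and Psma4 106 bp from AY074887. Psmd10 lay 179 bp from the autophagy gene Atg4a, Psmg2 263 bp from the centriole gene Cep76 and Psme2 595 bp from Rnf31, a ubiquitin ligase gene. In 10 of these pairs and in Psmb1 with Tbp the domain held the start of both genes. The exception was Psmd1, whose start near Htr2b belongs to internal transcripts far from its own peak.

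Counting TSSs of a neighbour on either strand, the domain of 14 of 48 marked members held one (29.2%), against 20.9% of all marked genes. In 5 members the summit of the peak lay upstream of the reference TSS, and 4 of these had a divergent neighbour. With upstream negative, it lay at −1869 bp in Psmb1, toward Tbp, at −875 bp in Psme2, toward Rnf31, and at −285 bp in Psmc2, toward Dnajc2. In Psmb9 it lay at −118 bp, while the reference TSS of its neighbour Tap1 lies on the other side, 211 bp downstream of that of Psmb9. The member without such a neighbour was Psmc3ip, at −196 bp. Signal values of such shared peaks are not those of the proteasome gene alone.

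The median shape at the TSS was close to that of all marked genes, while single members varied. The domain reached 33 bp upstream and 227 bp downstream of the reference TSS in Psma8, against 301 bp and 4098 bp in Psmd6. The domain held the reference TSS in 47 of 48 marked members (97.9%), against 87.7% of all marked genes and 92% of the high CpG class. The exception was Psmf1, whose reference TSS lies 2290 bp upstream of the peak, at which other TSSs of the gene start. Since the domain is the widest one near any TSS, it can lie at another start of the gene. Any peak at all covered the reference TSS in 97.9% of the marked members, 96.0% of marked high CpG genes and 91.2% of all marked genes. The values that follow are for the genes whose domain held the reference TSS, 47 members and 13213 of all marked genes. Around that TSS the domain reached a median of 759 bp upstream and 1616 bp downstream in the 47 members, against 768 bp and 1488 bp in the 13213 genes. It reached further downstream than upstream in 39 of the 47 (83%), against 81.8% of the 13213 genes. The summit lay downstream in 42 of the 47 (89.4%), against 83.5% of the 13213 genes. The median summit was at 247 bp in these members, against 195 bp in the 13213 genes.

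**Figure D4:**
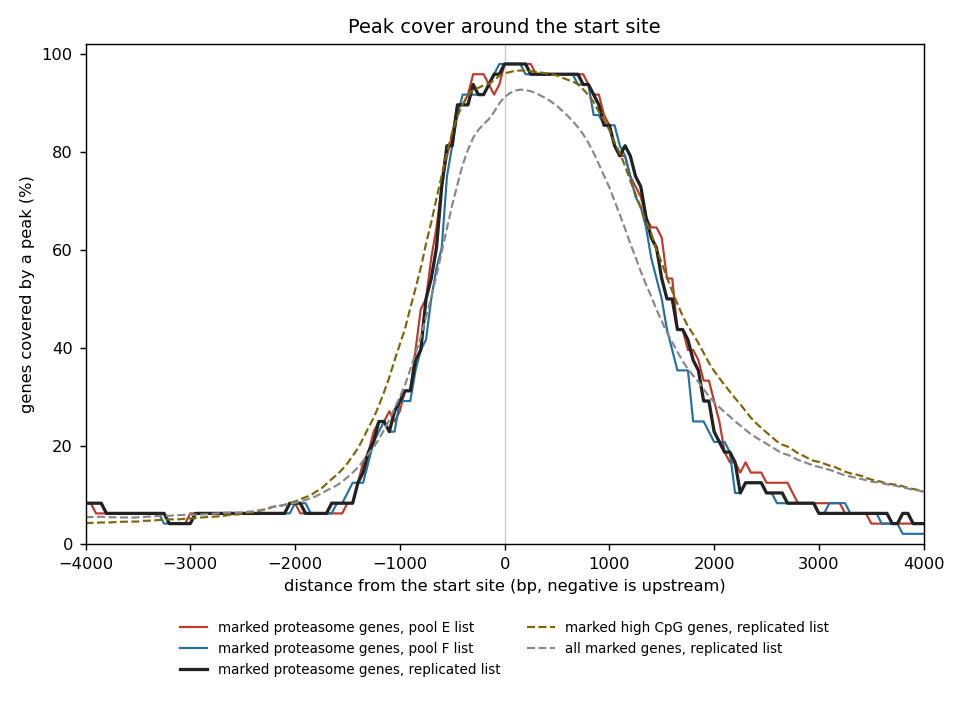
Share of genes covered by a peak (y axis, percent) by distance from the reference TSS (x axis, bp, negative upstream) for the 48 marked proteasome genes in the 3 lists and, as dashed lines, for marked high CpG genes and all marked genes in the replicated list. At 2000 bp downstream 22.9% of the proteasome genes are covered, against 35.3% of the high CpG genes and 28.9% of all marked genes.

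Cover differed from the 2 wider groups by distance. At 1000 bp upstream 29.2% of the members were covered by a peak, against 40.7% of marked high CpG genes and 29.98% of all marked genes. At 1000 bp downstream the shares were 85.4% of the members, 84.5% of high CpG genes and 72.8% of all marked genes. At 3000 bp downstream they were 6.25% of the members, 16.7% of high CpG genes and 15.7% of all marked genes. At 2000 bp downstream the share of members covered was 29.2% in the pool E list and 20.8% in the pool F list, on either side of the 22.9% of the replicated list. A single peak stood near the TSSs of 43 of the 48 genes. A second one at Psmd5, of 795 bp and signal value 11.04, covered an alternative TSS, and those at Psmc4 (348 bp, 4.26) and Psmd6 (307 bp, 3.12) were weak flanks of the main peak. Psmb3 had weak internal peaks of 454 bp (2.56) and 360 bp (4.12), and the other gene, Psme1, had the peak of Fitm1.

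Not every annotated start of these genes was marked. Of the 258 member TSSs, 198 lay within 1000 bp of a replicated peak. The marked members had 198 of 255 TSSs near a peak (77.6%), against 70.3% in all marked genes. Among the 60 without a peak, 20 start a protein-coding transcript and 40 start only other transcripts. One of the coding starts belongs to Psma6 at 55384222 on chromosome 12, 13499 bp from the nearest peak, while the main start of that gene lay inside one.

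The pools differed little in which genes were marked and moderately in width. Pool E had the wider domain in 39 of the 48 genes (81.2%), against 76.8% of all genes marked in both, with a median difference of 109.5 bp for pool E minus pool F, against 112 bp in all genes. The ratio of widths had a median of 1.05 and ran from 0.856 to 1.29, and 34 of 48 members (70.8%) were within 1.1-fold, against 64.3% of all genes. Across the 48 genes the 2 widths had a Spearman rho of 0.93, a description of peaks from the same tissue and processing. Ranks by signal value moved more for some genes. Psma3 stood at percentile 35.3 in pool E and 97.9 in pool F. The ATPase gene Psmc5 stood at 32.8 in pool E and 94.0 in pool F, and the lid gene Psmd12 at 48.7 in pool E and 90.7 in pool F. The alpha ring gene Psma1 went the other way, at 74.3 in pool E and 36.2 in pool F, as did the ATPase gene Psmc6, at 85.99 in pool E and 48.2 in pool F. With 1 list per pool these shifts cannot be set against the spread between libraries. Across the same genes signal value had a rho of −0.025 with width, and the CpG ratio had a rho of 0.105 with signal value and 0.33 with width.

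Motifs were searched on both strands of the RefSeq promoters, from 250 bases before to 50 after each start, which existed for 42 members and 16433 protein-coding genes. Psma8, Psmb1, Psmb2, Psmb7, Psmc3, Psmd3, Psmd7 and Psmg2 had no entry used here. A match is a description of letters and not of a bound site. On the given strand alone most counts were smaller, with 10 members in place of 15 for the ETS type and 14 in place of 23 for the GC box. They were 2 in place of 5 for the interferon response type, 5 in place of 8 for YY1 and 3 in place of 6 for TGACNNNGC. Shares of the wider groups were counted on both strands only. The ETS type motif CCGGAAG was present in 15 of 42 members (35.7%), against 20.1% of marked high CpG genes and 13.4% of all genes. Its holders were Psma6, Psmc1, Psmc2, Psmc3ip, Psmc6, Psmd11, Psmd12, Psmd13, Psmd2, Psmd4, Psmd6, Psme3, Psme4, Psmg1 and Psmg3, so it was found in 9 of the ATPase, base and lid genes and in none of the beta genes with an entry. The 60 bases before the start of 7 holders are shown, from chr12:100110142-100110201 (Psmc1, plus), chr16:20651592-20651651 (Psmd2, plus), chr14:14120946-14121005 (Psmd6, minus), chr11:80428555-80428614 (Psmd11, plus), chr11:107479468-107479527 (Psmd12, plus), chr11:30771715-30771774 (Psme4, plus) and chr11:101095436-101095495 (Psmc3ip, minus). Each lies inside the peak of its gene, and capitals mark the motif or its complement.
Psmc1: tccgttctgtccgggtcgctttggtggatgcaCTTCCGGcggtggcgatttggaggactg
Psmd2: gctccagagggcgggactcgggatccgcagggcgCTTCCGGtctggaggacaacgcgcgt
Psmd6: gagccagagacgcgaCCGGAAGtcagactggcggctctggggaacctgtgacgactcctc
Psmd11: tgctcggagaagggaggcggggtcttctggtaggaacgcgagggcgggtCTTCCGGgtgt
Psmd12: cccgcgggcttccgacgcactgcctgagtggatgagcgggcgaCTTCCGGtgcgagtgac
Psme4: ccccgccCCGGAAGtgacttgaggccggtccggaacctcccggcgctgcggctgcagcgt
Psmc3ip: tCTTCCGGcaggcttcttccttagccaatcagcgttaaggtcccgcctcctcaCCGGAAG
These 7 were taken from the holders with a match in the last 60 bases, so its nearness to the start there was fixed by the choice. Other holders had it further out, as at −125 to −119 in Psmd4 and −100 to −94 in Psmc6. The promoter of Psmc3ip holds it 3 times, at −77 to −71, −59 to −53 and −7 to −1.

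The YY1 type motif AAGATGG was present in 8 members (19%), against 7.99% of marked high CpG genes and 7.27% of all genes. Its holders were Psma2, Psmb6, Psmc1, Psmc4, Psmc5, Psmd8, Psme2 and Psme2b. The interferon response type was present in 5 members (11.9%), against 2.91% of marked high CpG genes and 4.04% of all genes, namely Psmb3, Psmd4, Psmd9, Psme1 and Psmg4. Of the interferon-induced subunits and caps, that list holds Psme1 and none of Psmb8, Psmb9, Psmb10 and Psme2. The bases searched for Psmb8 (34197945-34198244) and Psmb9 (34187281-34187580) lie wholly downstream of their reference TSSs, at 34197790 and 34187764. Bases upstream of those TSSs were thus not searched. The STAT type TTCNNNGAA was in 3 members (7.14%), against 6.8% of marked high CpG genes and 9.05% of all genes. The kappa B type was in 0 members, against 0.298% of marked high CpG genes and 0.505% of all genes.

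The antioxidant response type TGACNNNGC, the core letters bound by the factors of Nfe2l1 and Nfe2l2, was present in 6 members (14.3%), against 18.2% of marked high CpG genes and 15% of all genes. These were Psmb5, Psmb6, Psmc6, Psmd9, Psmd12 and Psme4. The GC box GGGCGG was in 23 members (54.8%), against 79.5% of marked high CpG genes and 51.3% of all genes. CCAAT was in 15 (35.7%), against 40.2% of marked high CpG genes and 42.2% of all genes. The other 4 motifs were each in at most 4 members. The E-box CACGTG was in 4 (9.52%), against 12.8% of marked high CpG genes and 9.22% of all genes, and TATAAA was in 4 (9.52%), against 7.19% of marked high CpG genes and 14.3% of all genes. The nuclear respiratory factor type GCATGCG was in 3 (7.14%), against 8.47% of marked high CpG genes and 5.14% of all genes, and GACGTCA was in 1 (2.38%), against 7.13% of marked high CpG genes and 4.52% of all genes.

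**Figure D5:**
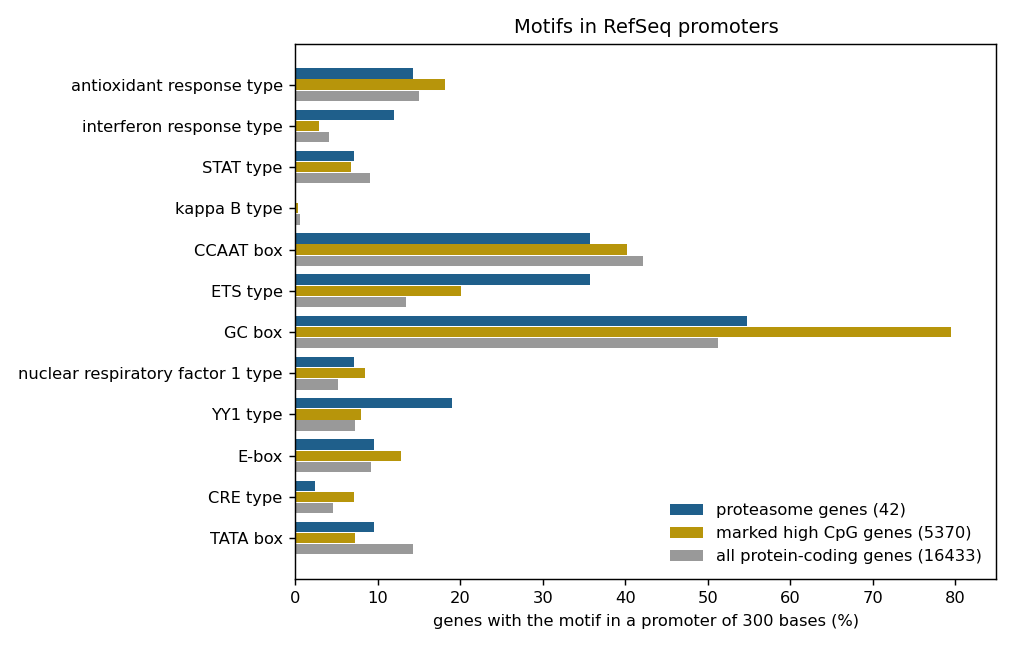
Percent of genes (x axis) whose RefSeq promoter of 300 bases holds each of 12 motifs (y axis), for 42 proteasome genes (blue), 5370 marked high CpG genes (yellow) and 16433 protein-coding genes (grey). The ETS type is at 35.7% in proteasome genes, against 20.1% of marked high CpG genes and 13.4% of all genes, and the GC box is at 54.8% in proteasome genes, against 79.5% of marked high CpG genes and 51.3% of all genes.

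Genes that act with the proteasome were marked throughout. All 29 genes found of a list of 30 partners and regulators were marked in both pools, against 68.6% of all protein-coding genes in all 3 lists. These are genes of the high or intermediate CpG class, of which 96.7% were marked, so the share was near that background. Their median signal value was 54.3, against 45.2 in all marked genes. The highest were Ufd1 (61.6), a cofactor of the unfoldase Vcp, and Txnl1 (61.5), a thioredoxin bound to the regulatory particle. Nfe2l2, a stress response factor, had 31.1. Nfe2l1, the factor known to raise proteasome genes when proteasomes are inhibited, had a signal value of 56.3 over a domain of 9137 bp, wider than that of any member.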

How the data were processed

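The 4 gastrocnemius libraries of pools E and F had been turned by the authors into narrowPeak lists on mm10. Per the text files of the samples, each list came from a filtered alignment of 1 pool or of both, together with an input alignment common to all lists. How reads were aligned and peaks called is not given in the sources used here. In the deposited lists every peak has a signal value whose reference is not stated, and significance as −log10 of its p-value and of its q-value. They hold no read counts, so no interval for counting error could be given. The replicated and pooled lists carry the signals of both pools and are no check on each other.

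TSSs were those of all GENCODE M21 transcripts, and a gene's reference TSS was the outermost start of its principal transcripts. Peaks within 1000 bp of a TSS marked a gene, and peaks up to 1000 bp apart formed a domain. CpG class used windows of 1000 bp at the TSSs, with a high class (observed over expected ratio of at least 0.75 and GC of at least 55% in any window), a low class (ratio under 0.48 in all windows) and an intermediate rest. Copies of start regions were searched with blastn 2.17.0, at 95% identity over 300 bases or more. Promoter sequences and the genome came from RefSeq GRCm38.p6. Other steps used Python 3.11.15, numpy 2.4.6 and pandas 2.3.3, and the calls and widths were tested on simulated data.

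The members, gene lists, pairs and motifs were chosen with earlier results of these data known. Named genes were the inducible, thymic and testis subunits with their counterparts, members unmarked in any list, the highest and lowest of each role group, the 3 widest and narrowest domains, members with a close divergent gene, Psmc3ip, and the extremes of the other lists, of which 1 is not reported here. Other genes named for a rank shift between pools, an extra peak or a motif were chosen after their values were seen. No test was run, since there is 1 list per pool and 1 condition. Alternatives were TSS windows of 0 and 2500 bp, TSSs of protein-coding transcripts only, peaks with a q-value of at most 0.01, the pooled list, each pool alone, domain gaps of 0 and 2000 bp, a CpG window of 500 bp and motifs on the given strand only.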

Additional observations from a re-analysis of the deposited data

How the results depend on the processing

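The count of 48 marked members and of 4 marked genes among the 5 inducible, thymic and testis genes was the same under each TSS window, with TSSs of protein-coding transcripts only, at a q-value of at most 0.01, in the pooled list and in each pool alone, and none of the 50 members changed its call. Leaving out 1 replicate gave a median signal value of 44.7 to 50.5 and a median width of 2284 to 2585 bp. The median width was 2385.5 bp without joining peaks and 2463 bp at a q-value of at most 0.01. The CpG class depended on its window, since 34 members were high with windows of 500 bp, against 16 with 1000 bp. Motif counts on the given strand alone were 3 for TGACNNNGC, 2 for the interferon response type, 10 for CCGGAAG, 14 for GGGCGG, 5 for AAGATGG and 0 for GACGTCA. The lists carry no depth, so a weak peak such as that of Psma8 has no interval, and a missing peak shows only that none was called. No paired analysis was possible because no list holds a value per library.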
